A study of Mus musculus with 16 samples.

Results

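The 10 genes described here are Fos, Fosb, Jun, Junb, Egr1, Atf3, Ier2, Ier3, Dusp1 and Gadd45b, found by symbol among the 31053 features of the deposited count matrices. All 10 were present. They were chosen by function, as immediate early genes, and by measured values: the levels of Gadd45b and of stress genes in podocyte-like cells of diabetic against control mice were already in view. So the contrast of diabetic with control mice in podocyte-like cells is therefore given below as a description with no test. The study profiled single cells of a kidney preparation enriched for glomeruli, taken from mice with diabetic nephropathy (DN) and from control mice. DN mice were BTBR ob/ob, an inbred strain that lacks leptin and becomes obese and diabetic, and control mice were BTBR +/+. Each genotype was sampled at 6 weeks and at 12 weeks of age in females and in males, with 2 libraries for each of these 8 groups and both kidneys of 1 mouse in each library, 16 libraries in all. Both genotypes carried a membrane tdTomato and EGFP reporter with a podocyte-driven Cre, so no group lacked it. Every kidney was digested with warm collagenase, depleted of proximal tubule on a Percoll gradient, digested again on ice with a cold-active protease and passed through dead cell removal. A difference between libraries can therefore come from the mouse or from its preparation, and these cannot be told apart.

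Immediate early genes are transcribed within minutes of a signal, without new protein synthesis, through factors such as SRF and CREB that already sit in the nucleus, and their transcripts are short-lived. Fos, Fosb, Jun, Junb and Atf3 encode basic leucine zipper proteins of the AP-1 group, and Egr1 encodes a zinc finger factor. Ier2 and Ier3 encode small proteins induced early by growth factors and stress, Dusp1 encodes a phosphatase that switches MAP kinases off, and Gadd45b encodes a stress-induced protein that binds the MAP kinase kinase kinase Map3k4. In kidney these genes respond to injury and growth factors, and in dissociated tissue they also respond to enzymatic digestion at warm temperature, which makes their level in a single-cell library a joint reading of the animal and of the handling.

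Cells were grouped into 16 marker-defined classes, and the raw UMIs (unique molecular identifiers, 1 per captured transcript) of a class were summed within each library. Levels are given as CPM, the UMIs of a gene per 1000000 UMIs of that sum, for sums of at least 10 cells. After filters 83831 cells remained, of which 67479 fell in a named class. The classes ran from 17567 proximal tubule (PT)-like cells to 519 arterial endothelial (EC)-like cells, and in each class all listed markers, or all but 1, were above 2 times their median over the other classes. Libraries split by the cell barcodes they shared into a set of 4, replicate 1 of each female group, and a set of 12. These sets are called the smaller and the larger barcode list after the number of libraries in each. The length of either list was not measured. The 4 libraries held 10510855 to 21728793 UMIs, while the other 12 held 83410397 to 125551519. Libraries on the same list shared 0.108% to 1.43% of their barcodes and libraries on different lists at most 0.0589%. The library DN male 12 weeks replicate 1 stood apart in the genes described here, and several results that rest on it are given with and without it. Others, such as the correlations between genes, are given only with it.

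The promoters of Dusp1, Fosb and Gadd45b are shown because they are the members whose start regions hold one of the 4 motifs searched, an element of CREB, which acts upstream of the early genes, or of EGR factors such as Egr1. In the RefSeq promoter set of GRCm38.p6, 250 bases before to 50 after the start of each gene, 8 of the 10 genes had an entry. Capitals mark the motif, and each window is written 5′ to 3′ on the strand of its gene.
Dusp1: gtagggcgggTGACGTCAccgcccggtc
Fosb: tgacgcaagcGCGGGGGCGggtcccggag
Gadd45b: ccgctcgcagCGCCCGCGCgctcactccg
The Dusp1 window lies at chr17:26508598-26508625 on the minus strand and holds the CREB element TGACGTCA at positions -143 to -136 from the start. That start, 26508472, lies 53656 bases inside the Dusp1 span of the GENCODE annotation given with its levels, which begins at 26562128. The Fosb window lies at chr7:19310077-19310105 on the minus strand and holds the EGR motif GCGNGGGCG at -50 to -42. The Gadd45b window lies at chr10:80930051-80930079 on the plus strand, with the EGR motif on the opposite strand at -30 to -22. Both strands were searched. TGACGTCA was found in 1.79% of 32851 promoters and in 1 of the 8 shown here, and GCGNGGGCG in 5.55% of promoters and in 2 of the 8. The AP-1 motif TGANTCA, found in 7.81% of promoters, and the CArG box that binds SRF, found in 1.63%, had no match in the 8 windows. Sequence further than 250 bases before a start was not searched, and Egr1 and Ier2 were not searched at all. The lack of a match therefore does not show that a gene lacks the motif. A match is only a run of letters and was not tested for binding.

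Fos (ENSMUSG00000021250, chromosome 12, 85473890 to 85477273, plus strand), the partner of Jun proteins in AP-1, was highest in smooth muscle and renin-like cells, from 182 to 1671 CPM with a median of 473 over 16 libraries. Immune-like cells followed at a median of 439.9 CPM, from 93.3 to 1065, and then descending limb (dLOH)-like cells at 188 CPM, from 33.1 to 743. The order of the leading classes was not fixed, since smooth muscle and renin-like cells lay above immune-like cells in 8 of 16 libraries. Podocyte-like cells came 7th at a median of 53.8 CPM but had a wide range, from 2.46 to 935. PT-like cells were lowest at 2.15 CPM, from 0.610 to 9.11. Fosb (ENSMUSG00000003545, chromosome 7, 19302696 to 19310051, minus strand), the close relative of Fos, was also highest in smooth muscle and renin-like cells, at a median of 138 CPM and a range of 51.2 to 238. It was next in dLOH-like cells at 74.7 CPM, from 21.0 to 171, and in peritubular and venous EC-like cells at 55.4 CPM, from 19.0 to 212.

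Jun (ENSMUSG00000052684, chromosome 4, 95049034 to 95052222, minus strand), which can pair with Fos proteins or with itself, was highest in the 3 endothelial classes. Glomerular EC-like cells had a median of 1133 CPM, from 712 to 2253, peritubular and venous EC-like cells 1002 CPM, from 522 to 2294, and arterial EC-like cells 819.7 CPM, from 396 to 2206. Glomerular exceeded peritubular EC-like cells in 11 of 16 libraries. Podocyte-like cells had 328 CPM, with the narrow range of 240.3 to 615, and PT-like and distal convoluted tubule (DCT)-like cells each had a median of 32.8 CPM. Junb (ENSMUSG00000052837, chromosome 8, 84974484 to 84978718, minus strand), an AP-1 subunit that can restrain Jun, was highest in immune-like cells at 558 CPM, from 206 to 987, and in dLOH-like cells at 476 CPM, from 185 to 992. Each lay above the other in 8 of 16 libraries. Principal cell (PC)-like cells had 388 CPM, from 211 to 862, podocyte-like cells 92.1 CPM, from 25.9 to 1359.7, and PT-like cells 12.9 CPM. Atf3 (ENSMUSG00000026628, chromosome 1, 191170296 to 191218039, minus strand), a stress-induced repressor, was the member with the fewest UMIs, 2155 over all kept cells, and reached a median of 38.2 CPM in immune-like cells with a range of 0 to 121. Jun, Junb, Atf3 and Dusp1 overlap other annotated genes, and whether reads were counted by strand is not given in the sources used here, so reads of the overlapping stretches may belong to either gene.

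Egr1 (ENSMUSG00000038418) was highest in PC-like cells, at a median of 173 CPM from 69.8 to 279, and exceeded dLOH-like cells in 12 of 16 libraries. dLOH-like cells had 127 CPM, arterial EC-like cells 123 CPM and smooth muscle and renin-like cells 116 CPM, with ranges that overlapped. Ier2 (ENSMUSG00000053560, chromosome 8, 84661331 to 84662852, minus strand) was highest in arterial EC-like cells at 460.2 CPM, from 231 to 1068, and lay above peritubular and venous EC-like cells in 13 of 14 libraries with both. Ier3 (ENSMUSG00000003541, chromosome 17, 35821684 to 35822923, plus strand), which influences survival signalling, was highest in the distal nephron classes. Its median was 232 CPM in DCT-like cells, from 88.1 to 583, and 219 CPM in connecting tubule (CNT)-like cells, from 70.4 to 739, and DCT lay above CNT in 8 of 16 libraries. Podocyte-like cells were next at 163 CPM, from 93.2 to 513.

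Dusp1 (ENSMUSG00000024190, chromosome 17, 26505590 to 26562128, minus strand) was highest in arterial EC-like cells at a median of 552 CPM, from 265 to 2419, above glomerular EC-like cells at 361 CPM in 12 of 14 libraries. Mesangial-like cells had 311 CPM, from 149.5 to 710.1, and CNT-like cells, the lowest class, 8.54 CPM. Gadd45b (ENSMUSG00000015312, chromosome 10, 80930073 to 80932204, plus strand) had its highest median in podocyte-like cells, 86.7 CPM from 23.4 to 296 over 13 libraries. It was 64.4 CPM in dLOH-like cells, 55.6 CPM in glomerular EC-like cells and 47.0 CPM in mesangial-like cells. The podocyte-like median pools control libraries at 23.4 to 86.7 CPM with DN libraries at 116 to 296 CPM. This top rank therefore rests in part on the contrast that chose the gene, and nothing is read from it. Podocyte-like cells exceeded dLOH-like cells in 8 of 13 libraries, and with sums of at least 30 cells the order turned, with 64.4 CPM in dLOH-like and 50.4 CPM in podocyte-like cells. Within the 12 libraries of the larger barcode list Fos was highest in immune-like cells, 483 CPM against 318 CPM in smooth muscle and renin-like cells. The other 8 members kept their highest class under both of these settings and without removal of doublets.

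**Figure D1:**
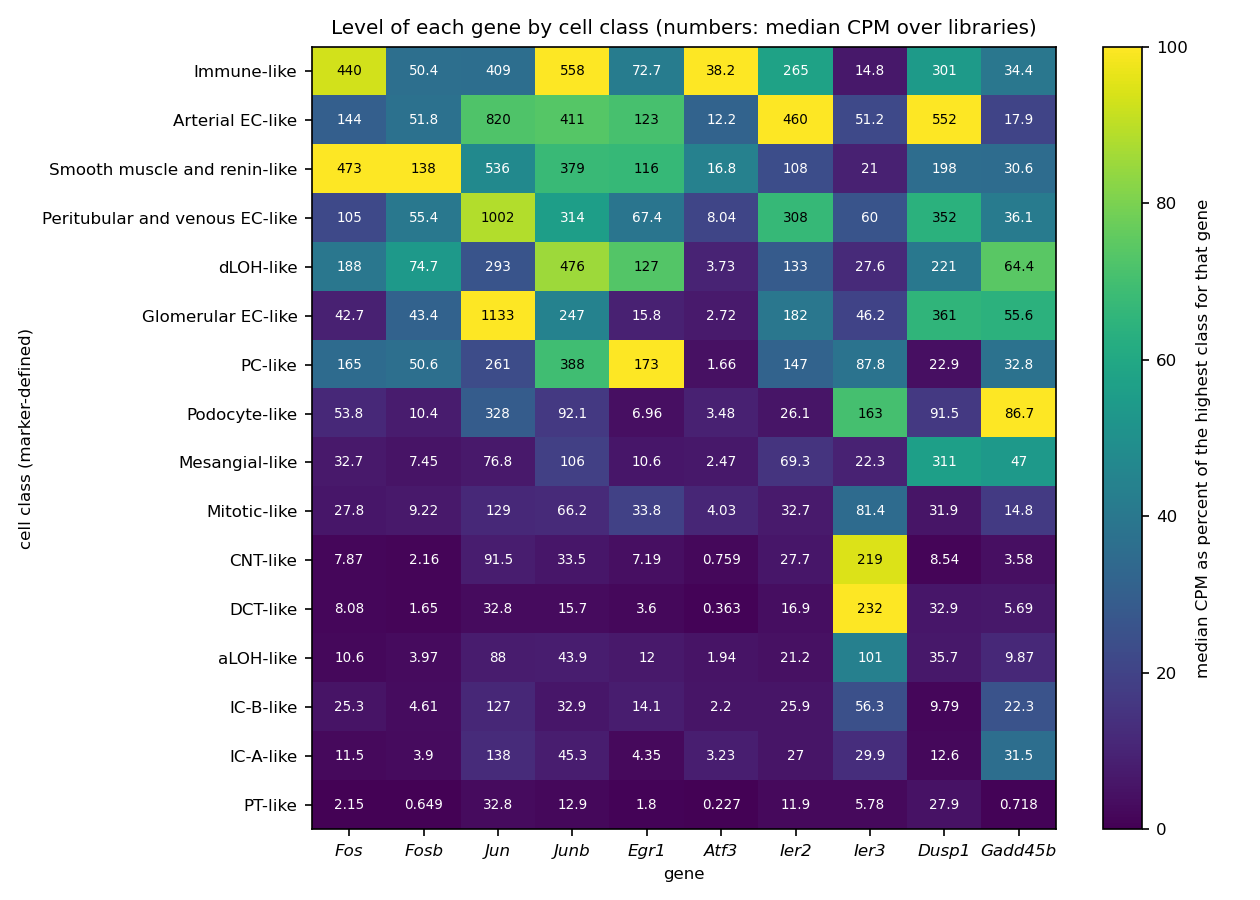
Each row is a marker-defined cell class and each column a gene, the number in a cell is the median CPM over libraries and the colour is that median as a percent of the highest class for the same gene. PT-like cells are the lowest of 16 classes for 9 of the 10 genes, the exception being Dusp1, while Jun peaks at 1133 CPM in glomerular EC-like cells and Ier3 at 232 CPM in DCT-like cells.

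PT-like cells were the lowest of the 16 classes for every member other than Dusp1, for which they ranked 12th at 27.9 CPM, from 16.9 to 168. Between neighbours in the order of medians the quartile ranges overlapped in 12 to 15 of the 15 steps for each gene, so that most single steps in the order are within the spread of libraries. The difference also appeared in single cells. When every cell was thinned to 1000 UMIs, which left out 2643 PT-like and 142 glomerular EC-like cells below that depth, Jun was seen in 67.02% of glomerular EC-like cells and in 3.33% of PT-like cells. The unthinned shares were 90.95% and 22.18%, at median depths of 3468 and 8293 UMIs per cell. Fos was seen in 27.6% of thinned smooth muscle and renin-like cells and in 0.335% of PT-like cells, against 49.4% and 2.33% unthinned. Ier3 was seen in 22.7% of thinned DCT-like cells and 0.650% of PT-like cells, against 65.8% and 5.59% unthinned. These shares are pooled over the cells of all libraries, and free RNA can add a UMI to a cell that does not express the gene. The amount of free RNA was not estimated, and the PT-like share is given only as the lowest class.

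In podocyte-like cells all 10 genes had a higher mean CPM in DN than in control mice at both ages, but at 12 weeks 5 of them did so only with DN male 12 weeks replicate 1. Gadd45b differed most evenly across libraries. This class held 793 cells, 618 from control and 175 from DN libraries, and 3 of the 4 libraries on the smaller barcode list had fewer than 10 such cells and gave no value. At 6 weeks Gadd45b was 86.7, 23.4 and 34.4 CPM in control libraries and 296, 292 and 258 CPM in DN libraries. At 12 weeks it was 42.4, 33.0, 51.5 and 49.3 CPM in control and 118, 285 and 116 CPM in DN libraries. The groups did not overlap at either age, with means of 48.2 ± 33.8 (SD, n = 3) against 282 ± 20.7 (SD, n = 3) CPM at 6 weeks and 44.0 ± 8.31 (SD, n = 4) against 173 ± 96.9 (SD, n = 3) CPM at 12 weeks. The log2 ratio of these means, with 1 CPM added to each, was 2.52 and 1.95. With DN male 12 weeks replicate 1 left out, the older groups gave 1.39. After thinning to 1000 UMIs, Gadd45b was seen in 2.27% to 5.26% of the podocyte-like cells of each control library and in 6.67% to 38.5% of those of each DN library.

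Fos was 59.9, 68.7 and 11.5 CPM in control libraries at 6 weeks and 165, 733 and 343 CPM in DN libraries, without overlap. At 12 weeks it was 21.2, 52.2, 8.74 and 2.46 CPM in control and 53.8, 935 and 6.08 CPM in DN libraries, where the value of 935 CPM was that of male replicate 1. The groups overlapped at 12 weeks, and without that library the DN mean fell from 332 to 30.0 CPM beside a control mean of 21.1. Junb was 106, 92.1 and 54.4 CPM in control libraries at 6 weeks and 117, 754 and 336 CPM in DN libraries. At 12 weeks it was 72.0, 136, 63.9 and 25.9 CPM in control and 61.0, 1359.7 and 57.8 CPM in DN libraries. Without the library at 1359.7 CPM the 12-week DN mean was 59.4 CPM, below the control mean of 74.4. Jun and Atf3 also fell below their control means without it. Fosb and Egr1 were at 0 in both remaining DN libraries at 12 weeks, and the mean of Ier2 was 23.5 CPM in each genotype.

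Dusp1 stayed apart between genotypes without that library, at a smaller difference. It was 91.5, 74.2 and 25.8 CPM in control and 148, 116 and 170.5 CPM in DN libraries at 6 weeks, and 76.2, 60.9, 47.8 and 29.6 CPM in control and 100.5, 347 and 125 CPM in DN libraries at 12 weeks. The groups were apart at both ages, and at 12 weeks the DN mean was 191 CPM against 53.6 in control, and 113 CPM without male replicate 1, so that the log2 ratio of means went from 1.81 to 1.06. Ier3 was 96.2, 164 and 103 CPM in control and 134, 360 and 219 CPM in DN libraries at 6 weeks, with overlap. Jun moved least, with a log2 ratio of means of 0.22 at 6 weeks and 0.18 at 12 weeks. In all, the groups were apart with DN higher for 5 of 10 members at 6 weeks (Fos, Junb, Atf3, Dusp1 and Gadd45b), where 3.95% of 7718 features were so, and for 2 at 12 weeks (Dusp1 and Gadd45b), where 3.41% were. Nothing is read from these counts, since this contrast chose the genes.

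Other readings of the podocyte-like sums moved with genotype in part. The summed level of 10 podocyte markers overlapped between genotypes, from 19540 to 28646 CPM over both ages, as did 11 heat shock genes at 2326 to 3700 CPM. Markers of fibroblasts were lower in DN, at 34.1 to 78.8 CPM against 89.9 to 223 CPM in control at 6 weeks and at 31.1 to 100.4 CPM against 106 to 131 CPM at 12 weeks. Of these 8 markers 4 were at 0 in all 13 libraries (Col1a1, Lum, Dpt and Mfap5), Dcn, Col3a1 and Pdgfra were each at 0 in 12, and nearly all of the sum was Col1a2, whose mean in DN was 55.6 against 154 CPM at 6 weeks. Glomerular EC markers overlapped at 1518 to 2643 CPM, of which Plat made 1476 to 2580 CPM, and mesangial and PT markers overlapped as well. The mitochondrial share of the sums was 5.83% to 7.06% in control and 6.28% to 6.33% in DN libraries at 6 weeks, and 5.49% to 6.31% against 4.84% to 7.59% at 12 weeks. Without DN male 12 weeks replicate 1 the 2 DN libraries left at 12 weeks were above all 4 control libraries in mitochondrial share, with a mean of 7.30%, and in podocyte markers, at 26341 and 27746 against 22356 to 25920 CPM. Their part in the difference was not tested. The median UMIs per cell averaged 8716 in control and 13706 in DN libraries at 12 weeks, with ranges that overlapped. A further cluster of 767 cells carried podocyte markers at a median of 1190 UMIs per cell and stayed unnamed. Of these, 418 passed the cell filters, and they carried fibroblast markers too, at up to 21342 CPM in DN male 12 weeks replicate 2, where podocyte markers were at 2641 CPM. Adding them raised the mean of the fibroblast markers at 12 weeks to 1755 CPM in DN against 159 CPM in control libraries and at 6 weeks to 2028 against 721 CPM, with ranges that overlapped, and brought 3 more libraries to at least 10 cells. The part of these markers was not tested. With these cells added, 3 members at 6 weeks and 1 at 12 weeks had groups apart with DN higher (Fos, Egr1 and Gadd45b at 6 weeks and Ier2 at 12 weeks), where 1.15% and 1.36% of the 7718 features were so, and Gadd45b lay at 15.6 to 84.2 CPM in control and 118 to 268 CPM in DN libraries at 6 weeks but overlapped at 12 weeks.

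**Figure D2:**
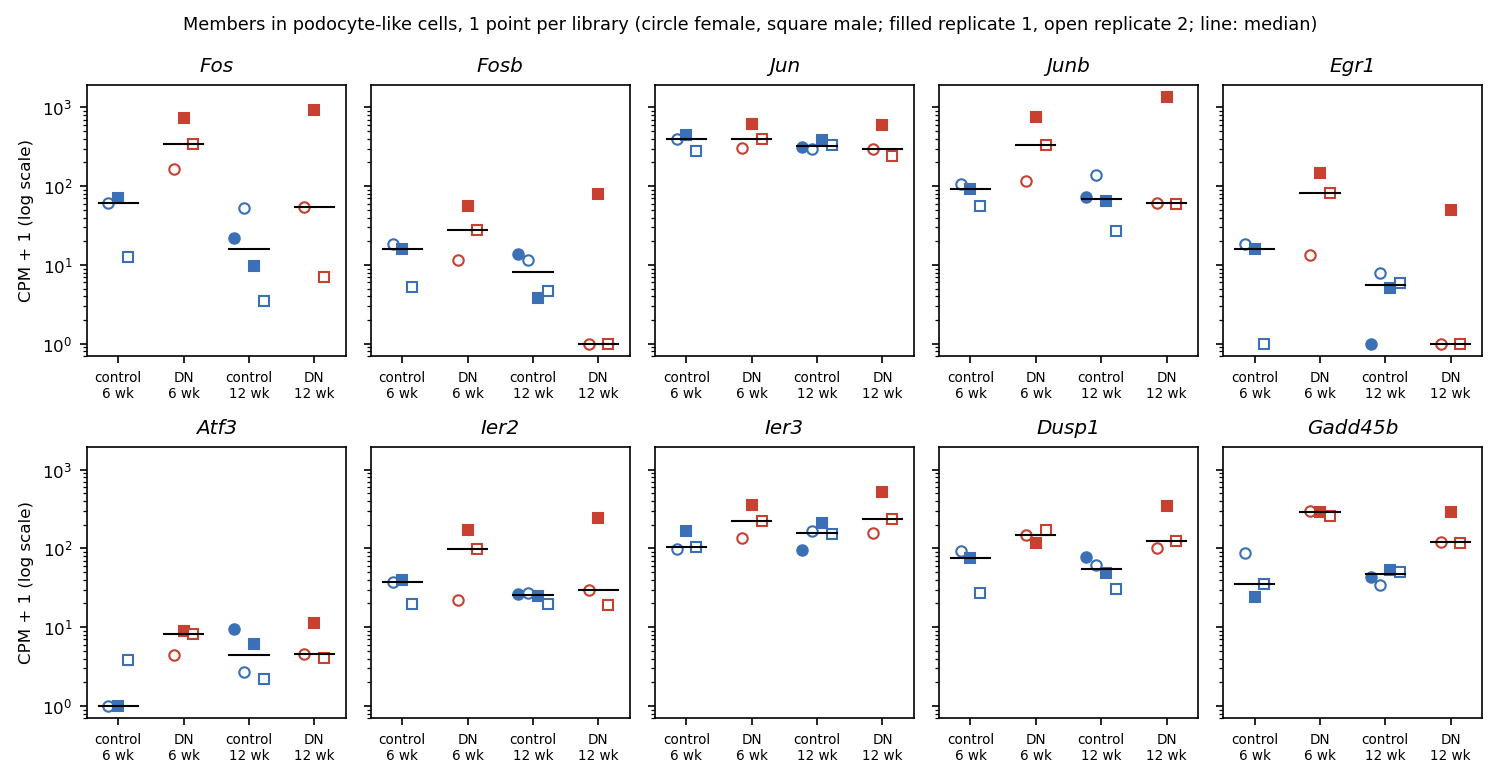
Each panel is a gene and each point a library of podocyte-like cells, plotted as CPM + 1 on a log axis by genotype and age, with circles for females, squares for males, filled points for replicate 1, open points for replicate 2 and a line at the median. Gadd45b lies at 258 to 296 CPM in DN and at 23.4 to 86.7 CPM in control libraries at 6 weeks, whereas Jun overlaps at both ages.

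The remaining 15 classes did not enter the choice of genes in that way and were tested between DN and control. edgeR's quasi-likelihood test on the library sums, with Benjamini-Hochberg adjustment over all genes of a class, called 0 of 142 pairs of a class and a member at 6 weeks, where 0.0638% of all 142528 gene and class pairs were called, 0.0337% higher and 0.0302% lower. Of the 142, 16 had an unadjusted p under 0.05, and DESeq2 called 1, beside 0.233% of all pairs (0.134% higher and 0.0989% lower). At 12 weeks edgeR called 1 pair, Ier3 in CNT-like cells, beside a background of 0.349% (0.245% higher), with 27 pairs at an unadjusted p under 0.05 and 3 called by DESeq2, beside 0.739% (0.499% higher and 0.24% lower). The difference of the DN effect between ages was called for 0 pairs, beside 0% of all pairs, with 8 at an unadjusted p under 0.05 and 0 by DESeq2. The median log2 fold change over the 142 pairs was 0.05 at 6 weeks and 0.21 at 12 weeks. In the block fit given below the 12-week median was 0.17, with 86 of 142 pairs above 0. Without DN male 12 weeks replicate 1 and its control that block median was 0.01, with 69 of 134 pairs above 0.

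Ier3 rose in CNT-like cells of DN mice at 12 weeks. It was 88.4, 103, 231 and 70.4 CPM in control libraries and 212, 559, 739 and 593 CPM in DN libraries, in the order female replicates 1 and 2 and male replicates 1 and 2. Each DN library lay above its same-numbered control, though the highest control exceeded the lowest DN library. Of all genes tested in the class 0.838% were called and 0.617% were higher. The log2 fold change was 2.05 ± 0.41 (SE), with an edgeR adjusted p of 0.0166, and 2.22 with an adjusted p of 0.0205 in the 12 libraries of the larger barcode list. The adjusted p rose to 0.0602 without control female replicate 2, to 0.0913 without control male replicate 2, to 0.104 without DN female replicate 2 and to 0.0530 without DN male replicate 1, with log2 fold changes of 1.77 to 2.44 over all libraries left out in turn. At 6 weeks Ier3 in the same class was 98.2, 226, 113 and 128 CPM in control and 116, 252, 681 and 559 CPM in DN libraries, with the difference carried by the males. That difference was 1.34 ± 0.43 (SE) with an edgeR adjusted p of 0.746. The CNT-like class took in a cluster of 222 cells, counted before doublet removal, with 99.5% of them from 1 library. The control at 128 CPM, male replicate 2, had the lowest median depth of all libraries, 698 UMIs per barcode. The part of either in these levels was not tested.

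Libraries of the same sex, age and replicate number deviated together in these data, so a second fit held each control and DN library of the same number as a block. Whether this goes beyond a difference shared by all libraries of 1 replicate number was not tested. The block called 11 of 142 pairs at 6 weeks, 8 higher and 3 lower in DN, against 1.15% of all pairs, 0.669% higher and 0.481% lower. At 12 weeks it called 27, 23 higher and 4 lower, against 3.13% of all pairs, 1.84% higher and 1.29% lower. Without DN male 12 weeks replicate 1 and its control, the 12-week count was 7 of 134, 5 higher and 2 lower, against 1.54% of all pairs, 0.948% higher and 0.596% lower, in a fit with 1 pair fewer. The 6-week count in this fit was 15, with 10 higher and 5 lower, against 1.05% of all pairs, 0.62% higher and 0.433% lower. All of these shares are pooled over classes. The share within a class can differ from them and is not given here for most classes. A single call is therefore not read as rare in its class.

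In the distal tubule and collecting duct the block values were these. Ier3 in CNT-like cells had a log2 fold change of 2.17 ± 0.28 at 12 weeks (edgeR adjusted p = 5.11e-05), which was 2.37 without the pair named above, and 1.53 ± 0.30 at 6 weeks (adjusted p = 0.0180). In PC-like cells, the water-reabsorbing cells of the collecting duct, Ier3 at 12 weeks was 41.7, 53.4, 77.7 and 50.2 CPM in control and 71.9, 204, 349 and 163 CPM in DN libraries, higher in every pair and with overlap at the lowest DN library. Its log2 fold change was 1.82 ± 0.31 in the block (adjusted p = 0.0019) and 1.63 without the pair (adjusted p = 0.0236), against an adjusted p of 0.0610 with no block. Intercalated cells, which handle acid and base, gave smaller values for Ier3 at 12 weeks, 0.78 ± 0.15 in the A type and 1.11 ± 0.26 in the B type, which were 0.62 ± 0.18 and 0.96 ± 0.30 without that pair and not called.

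Dusp1 at 12 weeks was higher in DN in every pair of ascending limb (aLOH)-like and DCT-like cells. In aLOH-like cells it was 36.2, 6.24, 18.0 and 10.6 CPM in control and 56.1, 23.8, 49.9 and 44.7 CPM in DN libraries, and the block gave 1.48 ± 0.19 (edgeR adjusted p = 0.0003). In DCT-like cells it was 10.7, 16.9, 10.7 and 10.4 CPM in control and 16.2, 41.3, 41.2 and 26.1 CPM in DN libraries, and the block gave 1.45 ± 0.22. Without the pair of DN male replicate 1 both were still called, with 1.31 in DCT-like cells, whereas with no block the aLOH value of 1.44 ± 0.49 had an adjusted p of 0.634. At 6 weeks only the aLOH value was called for this gene, at 0.86 ± 0.15. Over 15 classes at 12 weeks Gadd45b had a block log2 fold change above 0 in 4, with a median of -0.47, 1 higher call and 1 lower call. Gadd45b in PC-like cells, a class whose own share of calls is not given here, was the lower call and went the other way. It was 22.7, 48.6, 65.5 and 40.8 CPM in control and 14.5, 24.2, 42.0 and 19.2 CPM in DN libraries at 12 weeks, lower in every pair, with a block log2 fold change of -0.79 ± 0.16 and -0.91 without the named pair. At 6 weeks the same cells had 17.6, 20.7, 40.6 and 38.5 CPM in control and 29.4, 36.1, 57.4 and 29.6 CPM in DN libraries, and the difference between the ages was -1.17 ± 0.22 (adjusted p = 0.0445), the only pair called for it, against 0.033% of all pairs, 0.0189% higher and 0.014% lower. Without the pair of DN male 12 weeks replicate 1 it was -1.30 ± 0.24, as large but not called (edgeR adjusted p = 0.0837).

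**Figure D3:**
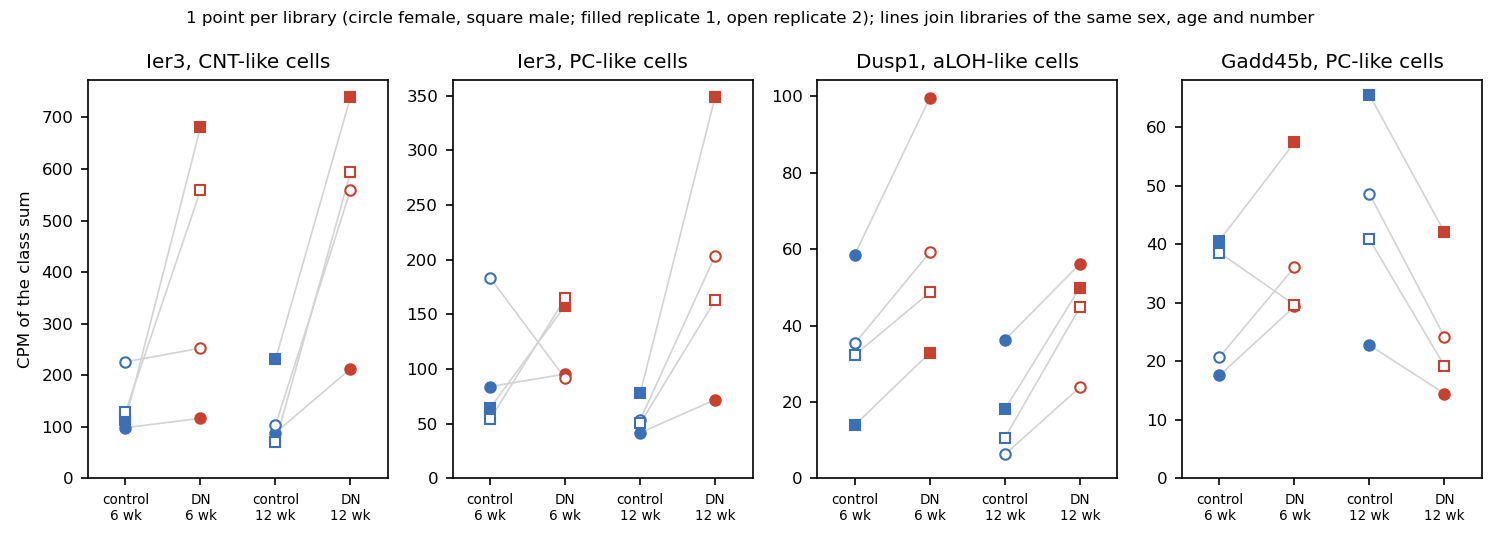
Each panel shows a gene in a tubule class with CPM of the library sum on a linear axis from 0, by genotype and age, 1 point per library (circle female, square male, filled replicate 1, open replicate 2) and lines joining control and DN libraries of the same sex, age and number. Ier3 rises along all 4 lines in CNT-like cells at 12 weeks, while Gadd45b in PC-like cells falls along all 4 at 12 weeks, from 22.7 to 65.5 CPM in control to 14.5 to 42.0 CPM in DN.

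In the glomerulus and vessels the block calls at 12 weeks leaned on DN male replicate 1. Fos in glomerular EC-like cells was 44.4, 14.6, 23.6 and 41.1 CPM in control and 83.5, 89.2, 288 and 30.6 CPM in DN libraries, higher in 3 of 4 pairs, with a block value of 2.44 ± 0.42. Fos in mesangial-like cells, the contractile cells that support the capillary tuft, was 24.9, 13.7, 34.2 and 34.9 CPM in control and 49.9, 48.9, 234 and 22.7 CPM in DN libraries, and the block gave 1.70 ± 0.35. Without the pair that holds the highest value of each they were 0.84 ± 0.40 and 0.66 ± 0.35, and neither was called. Dusp1 in glomerular EC-like cells was kept, with 442, 263, 218 and 185 CPM in control and 687, 322, 408 and 401 CPM in DN libraries, at 0.75 ± 0.12 with all pairs and 0.69 without that one.

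At 6 weeks the block called Junb and Egr1 higher in mesangial-like cells. Junb was 83.1, 73.3, 24.0 and 46.6 CPM in control and 123, 143, 129.6 and 131 CPM in DN libraries, without overlap, at a block value of 1.42 ± 0.28 (edgeR adjusted p = 0.0049). Egr1 was 0, 2.15, 2.18 and 0 CPM in control and 6.17, 50.01, 29.5 and 16.8 CPM in DN libraries, also without overlap. Egr1 was called lower in DN in IC-B-like cells, from 97.8, 33.8, 10.3 and 10.4 CPM in control to 79.9, 13.6, 6.17 and 7.45 CPM in DN libraries, at -0.78 ± 0.16. Junb was also called higher in arterial EC-like cells at 0.70 ± 0.16 and lower in smooth muscle and renin-like cells at -0.55 ± 0.13. In arterial EC-like cells Fos was 145, 43.3, 167 and 101 CPM in control and 354, 109, 389 and 109.8 CPM in DN libraries at 6 weeks, higher in every pair, with a block value of 1.08 ± 0.20, in a class where 0.499% of genes were called higher. At 12 weeks this class had complete pairs for only 2 of the 4 numbers, and Fos, Fosb, Jun and Junb were called higher there, against 0.25% of its genes higher and 0.0178% lower. One of the complete pairs was that of DN male replicate 1, and without it the class could not be tested at 12 weeks.

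Smooth muscle and renin-like cells, where Fos had its highest median, held 4 of the 7 lower calls of the block over both ages, Jun and Junb at 6 weeks and Ier2 and Junb at 12 weeks. The share of all genes called in this class is not given here, so nothing is read from that count. At 6 weeks Jun was 834, 530.2, 966 and 523 CPM in control and 457, 358, 617 and 412 CPM in DN libraries, lower in every pair, with a block value of -0.54 ± 0.12. Ier2 at 12 weeks was 201, 60.1, 298 and 80.4 CPM in control and 108, 44.8, 108 and 46.4 CPM in DN libraries, lower in every pair at -0.91 ± 0.17, and -0.62 ± 0.21 and not called without the pair of DN male replicate 1. Atf3 at 6 weeks went up, from 0, 5.79, 38.4 and 18.6 CPM in control to 7.81, 49.5, 57.0 and 45.5 CPM in DN libraries, at 1.58 ± 0.30. Fos in these cells was 626, 283, 818 and 528 CPM in control and 742, 210.0, 633 and 271 CPM in DN libraries at 6 weeks, with no call in either fit. The dLOH-like cells, by contrast, had lower Fos in DN at 12 weeks in every pair, from 349, 198, 743 and 179 CPM to 219.5, 93.4, 247 and 80.3 CPM, at -1.09 ± 0.23 in the block, and -0.86 ± 0.29 without the pair of DN male replicate 1, in the same direction but not called.

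Between 6 and 12 weeks edgeR called 0 of 151 pairs in control and 0 of 151 in DN libraries, podocyte-like cells included, against 0.00133% and 0.000666% of all pairs. Unadjusted p-values under 0.05 numbered 13 in control and 18 in DN, and DESeq2 called 1 and 0, beside 0.0166% of all pairs in control (0.00599% higher and 0.0106% lower) and 0.0133% in DN (0.00732% higher and 0.00599% lower). Gadd45b in podocyte-like cells of DN mice had a log2 fold change of -0.95 from 6 to 12 weeks and was not called. Its DN levels in these cells were in view when it was chosen, so nothing is read from this value.

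The members also differed between libraries of one group. In males, whose 8 libraries all used the larger list, replicate 1 was set against replicate 2 with genotype and age in the model. This called 45 of 151 pairs, 29.8%, with 39 higher and 6 lower in replicate 1, against 11% of all gene and class pairs, 5.79% higher and 5.17% lower. The fit counted the 8 libraries as independent although control and DN libraries of the same age and number deviated together, so its p-values are too small. Jun was higher in replicate 1 in 10 of 16 classes, Ier2 in 8 of 16 and above 0 in 16 of 16, Fos in 6 of 16 and Ier3 in 6 of 15. Podocyte-like cells had the largest class median, a log2 difference of 1.24, with 9 of 9 members above 0 and 5 called, which are among the 45. Their sums include the DN libraries whose levels were in view when the genes were chosen. Nothing is therefore read from this rank or from these 5 calls. In smooth muscle and renin-like cells Fos at 12 weeks was 1671 and 1186 CPM in the male replicates 1 and 338 and 182 CPM in the replicates 2, and the log2 difference over both ages was 1.72 ± 0.20. Jun in peritubular and venous EC-like cells was 1551, 1549, 931 and 2294 CPM in the 4 male replicates 1 and 730.4, 744, 522 and 624 CPM in the 4 replicates 2, at 1.28 ± 0.20. No replicate 1 overlapped a replicate 2. Ier3 in DCT-like cells differed by 1.33 ± 0.20.

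Fosb was lower in replicate 1 in 5 classes and higher in 1. The sixth lower call was Egr1 in arterial EC-like cells at -1.16, and Atf3, with no call, lay above 0 in 3 of 8 classes. In B-type intercalated (IC-B)-like cells Fosb was 4.84, 1.67, 3.48 and 4.39 CPM in the male replicates 1 and 11.4, 10.1, 22.3 and 31.3 CPM in the replicates 2, at -2.33 ± 0.27. Without the male 12-week replicates 1 the count was 20, 16 higher and 4 lower, against 1.93% of all pairs, 0.889% higher and 1.04% lower. Fos in smooth muscle and renin-like cells was then 0.97 ± 0.20, Jun in peritubular and venous EC-like cells 1.13 ± 0.21 and Ier3 in DCT-like cells 1.57 ± 0.29, all still called, while Fosb in IC-B-like cells was -1.77 ± 0.39 (edgeR adjusted p = 0.0580). In podocyte-like cells the log2 differences without those libraries ran from 0.05 for Gadd45b to 1.32 for Fos. What the replicate number stands for is not given in the sources used here. Replicate 1 libraries of all groups held 8.46% to 27.5% glomerular EC-like cells among kept cells and replicate 2 libraries 0.540% to 6.26%, so the number moved with the makeup of the cell preparation. Its part in the levels was not tested.

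**Figure D4:**
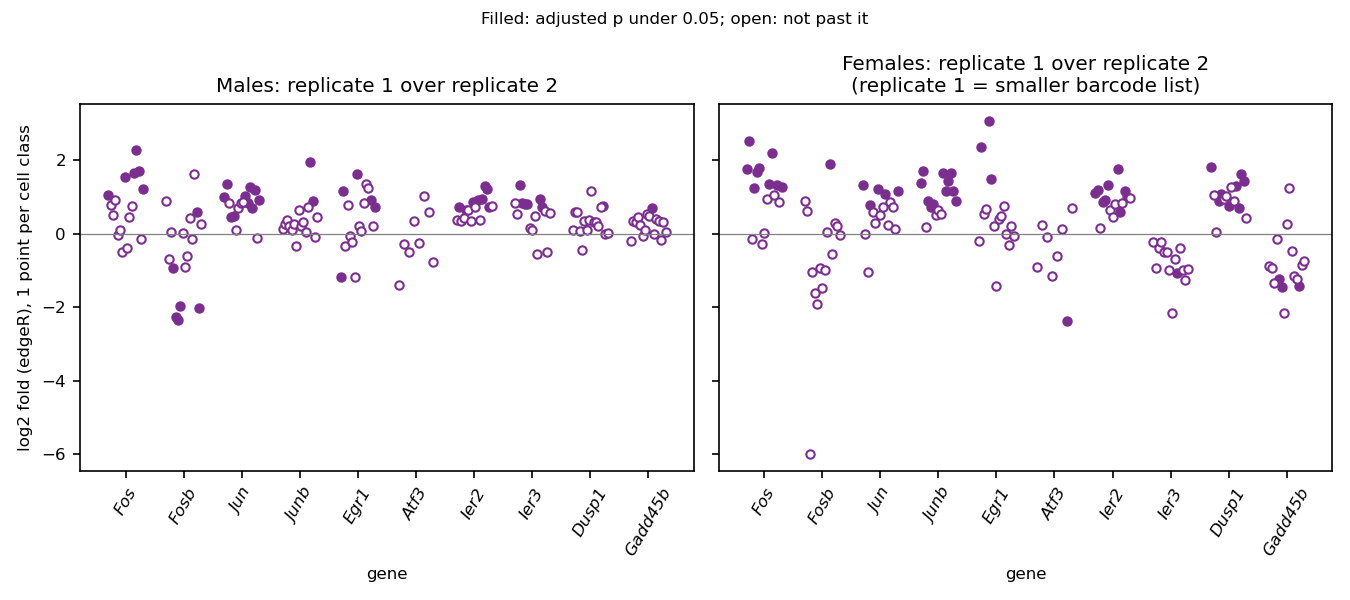
Each point is a cell class, plotted as the log2 fold change fitted by edgeR for each gene, filled where the adjusted p was under 0.05 and open where it was not, with replicate 1 over replicate 2 in males on the left and in females, where replicate 1 used the smaller barcode list, on the right. In males Ier2 lies above 0 in all 16 classes while Fosb has 5 filled points below 0, and in females Junb, Ier2 and Dusp1 lie above 0 in all 15 classes.

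In females, replicate 1 used the smaller barcode list and replicate 2 the larger, so that list and replicate number cannot be told apart. The study's methods name both v2 and v3 kits of the 3′ assay, and which libraries had which kit, or whether the lists follow the kits, is not given in the sources used here. Here 51 of 142 pairs were called, 35.9%, with 46 higher and 5 lower on the smaller list, against 22.5% of all pairs, 11.4% higher and 11.1% lower. The 8 female libraries were likewise counted as independent, so these p-values are too small as well. Without DN female 6 weeks replicate 1 the count was 32. Junb was higher in 11 of 15 classes, and Junb, Ier2 and Dusp1 each lay above 0 in 15 of 15. In PC-like cells Junb was 626, 539, 619.6 and 862 CPM on the smaller list and 217, 211, 288 and 229 CPM on the larger list, without overlap, at 1.66 ± 0.24. The lower calls were of other members. Ier3 lay above 0 in 0 of 14 classes, with a median log2 difference of -0.80 and 1 lower call, in PT-like cells at -1.05, and Atf3 was lower in smooth muscle and renin-like cells at -2.36. Gadd45b was lower in 3 classes, at -1.22 in A-type intercalated (IC-A)-like and -1.45 in IC-B-like cells. In IC-A-like cells it was 18.7, 19.9, 11.6 and 8.83 CPM on the smaller list and 40.6, 55.5, 30.0 and 26.8 CPM on the larger. Heat shock genes had calls in both directions, 15 higher and 21 lower of 165 pairs.

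To compare whole libraries, log2(CPM + 10) of each member was centred on its class mean and averaged over classes and members. The averages ran from -0.283 to 0.556. The value of 0.556 was DN male 12 weeks replicate 1, and the other 3 DN libraries of that age had -0.164 to -0.0538. Its same-numbered control, control male 12 weeks replicate 1, was the next highest of all libraries at 0.167. The DN library was above 0 in 12 of 12 classes, from 0.185 in PT-like to 1.21 in mesangial-like cells. Fos led there at 1.27, followed by Ier3 at 0.89, Jun at 0.70 and Junb at 0.67. Its heat shock genes averaged 0.102, within the range of -0.462 to 0.243 over all libraries.

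**Figure D5:**
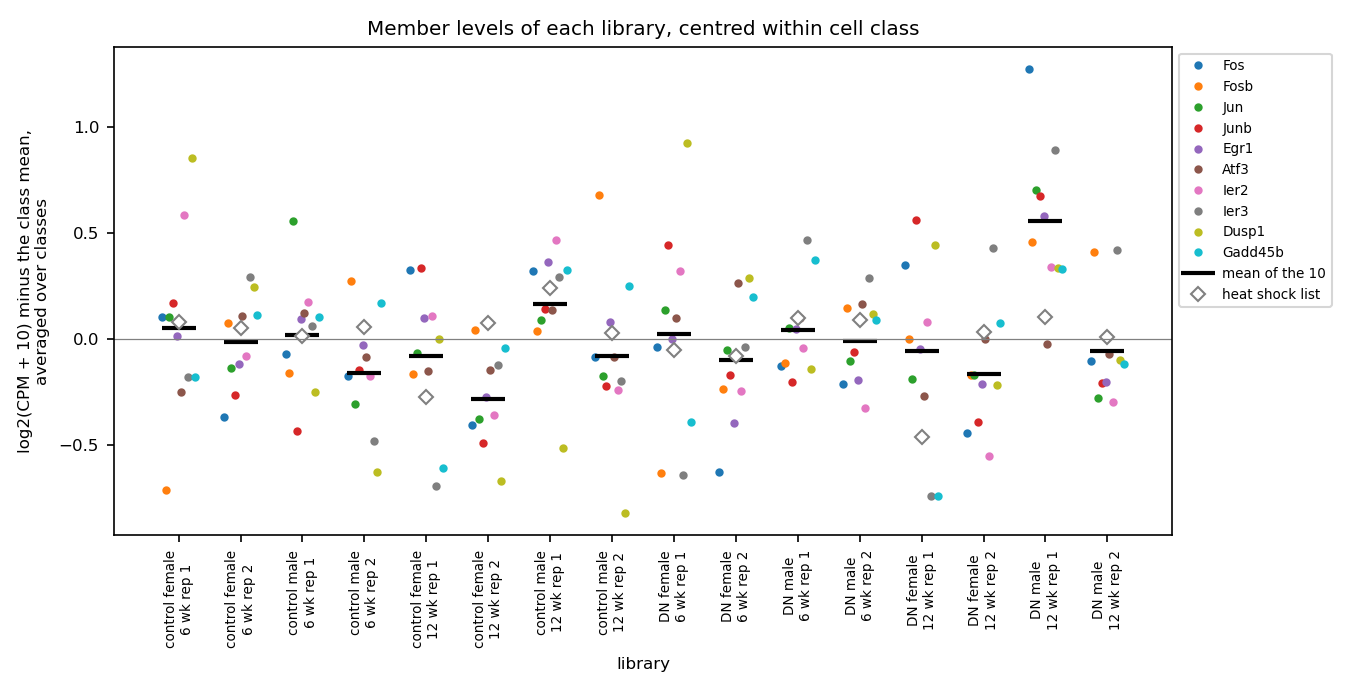
The vertical axis is log2(CPM + 10) minus the class mean, averaged over classes, for each of the 16 libraries on the horizontal axis, with a point for each gene, a bar for the mean of the 10 genes and a diamond for the heat shock genes. DN male 12 weeks replicate 1 reaches 0.556 for the 10 genes and 0.102 for the heat shock genes.

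The 10 genes did not vary as 1 unit. Over 178 library and class sums of 12 classes, after centring on the class, Fos correlated with the mean of the other members at r = 0.740, Jun at 0.709, Egr1 at 0.673, Junb at 0.648 and Ier2 at 0.624. Fosb at 0.326, Ier3 at 0.249, Atf3 at 0.246 and Dusp1 at 0.138 followed more loosely, and Gadd45b had r = -0.000526. The closest pair was Fos and Junb at 0.726, and Dusp1 and Gadd45b had -0.348. Among 6638 other genes the 10 with the highest correlation to the mean of the members were Btg2 at 0.643, Zfp36 at 0.528, Cyr61 at 0.477, Ppp1r15a at 0.473, Hspa1a at 0.454, Bex3 at 0.452, Tmed10 at 0.438, Tmem55b at 0.436, Gm26825 at 0.432 and Jund at 0.427. Btg2, Zfp36, Cyr61, Ppp1r15a and Jund are themselves genes of the early response and Hspa1a is a heat shock gene. Podocyte-like, immune-like, arterial EC-like and mitotic-like cells were not among the 12 classes, here or in the library averages above. Sums of the same library share depth and preparation and were not centred on barcode list, so these values are descriptions.

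Further genes of the early response were followed as a list of 25. At 12 weeks edgeR called 5 of 271 pairs of this list, 1.85%, all higher in DN, beside 0.349% of all pairs (0.245% higher), and DESeq2 called 10, all higher, beside 0.739% (0.499% higher). The 5 were Cyr61, a matrix protein induced by serum, in CNT-like cells at 2.76 and mesangial-like cells at 2.11, Rhob, a small GTPase, in CNT-like cells at 2.13 and PT-like cells at 1.42, and Klf6, a zinc finger factor, in mesangial-like cells at 0.98. Their edgeR adjusted p-values were 0.00787, 0.00730, 0.0168, 0.0174 and 0.00526. Of upstream transcription factors 1 of 151 pairs was called by edgeR and 1 by DESeq2, the former Crem in CNT-like cells at 1.65, so CNT-like cells held calls for Ier3, Cyr61, Rhob and Crem. These calls of Cyr61, Rhob, Klf6 and Crem are given only with DN male 12 weeks replicate 1 included. Heat shock genes had 0 of 165 pairs called by edgeR, with 10 at an unadjusted p under 0.05, and 1 lower by DESeq2, and the MAP kinase partners of Gadd45b had 0 of 109 by both, with 2. At 6 weeks the single call of these lists was Gadd45a, a relative of Gadd45b, in mesangial-like cells, which fell by 1.58 on the log2 scale (adjusted p = 0.0110), beside 0.0638% of all pairs called by edgeR (0.0302% lower). With the block, the further early genes had 37 pairs higher and 3 lower of 271 at 12 weeks, the heat shock genes 4 higher and 6 lower of 165, against 1.84% of all pairs higher and 1.29% lower. Without the pair of DN male 12 weeks replicate 1 these counts were 19 and 2 of 254 and 2 and 2 of 154, against 0.948% higher and 0.596% lower.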

How the data were processed

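Single-cell libraries were aligned and counted by the authors with Cell Ranger 3.0.2 against mm10, per the labels, and the deposited matrices hold raw UMI counts per gene and cell barcode, with replicates kept apart. From these counts, barcodes with 200 to 7000 genes and at most 50% mitochondrial UMIs were kept (94436 of 116439). Cells were reduced to 30 principal components of 2000 variable genes, integrated over libraries by a Harmony-like correction and clustered with leidenalg 0.10.2. The members and all lists below were left out of the variable genes. Clusters were called X-like from marker lists, 16 unnamed clusters were not used, and 9306 cells with markers of an opposite lineage (9.85%) and 1299 cells high in mitochondrial UMIs were removed. UMIs were summed per library and class where at least 10 cells were present.

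The sums were tested with edgeR 4.0.16 in R 4.3.3 (TMM scaling, its default filter on low counts, quasi-likelihood test, Benjamini-Hochberg adjustment over the genes of a class) with terms for the sexes and for genotype inside each age, and adjusted p under 0.05 was called. DESeq2 1.42.0 was an alternative. The pipeline was tested on simulated data. The study tested single cells, and here each library counts once. Libraries on the same number were checked for shared deviations. The correlation of the deviations of a control and a DN library from their group means was at least 0.651 in females and at least 0.291 in males in every class checked. A fit with a block for the 8 pairs of the same sex, age and number was therefore added. The check was made within each sex and age only. It cannot tell such pairs from a difference shared by all libraries of 1 replicate number. The replicate number term rests on the 8 male libraries and the barcode list term on the 8 female libraries.

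The members and lists were chosen with earlier results of these data known. The 10 members are all named, of each further list the called genes are named up to 5 per class and contrast, and genes of like pattern are the 10 highest correlations among genes with a mean of at least 20 CPM over sums of at least 50 cells. The lists of further early genes, heat shock genes, upstream factors and MAP kinase partners followed textbook membership. Shares of cells were computed after thinning to 1000 UMIs, and they cover capture as well as expression. The precision of a sum follows its UMIs, which were several times fewer in the 4 libraries on the smaller barcode list. Promoter entries for Egr1 and Ier2 were not used here, and the coordinates of Egr1 and 1 further podocyte marker are not reported here.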

Additional observations from a re-analysis of the deposited data

Results flagged for a closer look

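In whole libraries, the summed kept cells of control female 6 weeks replicate 1 held 218 CPM of Junb, against 92.3 to 109 CPM in the other 3 control libraries of that age, a gap large for the range of 4 libraries. The same library held 259 CPM of Dusp1 against 29.9 to 65.7 CPM, and DN female 6 weeks replicate 1 held 278 CPM of Dusp1 against 64.2 to 74.5 CPM in the other 3 DN libraries of that age. Both libraries used the smaller barcode list, and whole-library values also move with the makeup of classes. DN male 12 weeks replicate 1 averaged 0.556 over members and classes on the class-centred log2 scale, against -0.164 to -0.0538 in the other DN libraries of that age. These are 4 of 58 groups examined for a library far from the others, and chance alone would set apart about 1 in 20 groups. The DN effect on Gadd45b in PC-like cells differed between 12 and 6 weeks by -1.17 (log2) in the fit with the replicate block, the single such difference called among the members, and by -1.30 without the pair of DN male 12 weeks replicate 1, where it was not called. No cause was tested for any of these values.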

How the results depend on the processing

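No pair that edgeR called between DN and control or between barcode lists changed direction under the alternatives run for it. Pairs that were not called could turn, such as Fos in CNT-like cells between male replicate numbers, from 0.79 to -0.78 without the pair of DN male 12 weeks replicate 1, and the median member fold at 6 weeks was 0.05 by edgeR and -0.01 by DESeq2 (log2). In podocyte-like cells at 12 weeks, without DN male 12 weeks replicate 1, the DN mean of Fosb, Jun, Junb, Egr1 and Atf3 lay below that of control. The count of member and class pairs called between DN and control at 6 weeks was 0 and became 2 with barcode list as a covariate, 5 with replicate number as a term, 1 by DESeq2 and 11 with no filter on low counts. At 12 weeks it was 1 and became 10, 17, 3 and 25 under these settings. With the replicate block the counts were 11 at 6 weeks, 27 at 12 weeks and 1 for the difference between ages, which was 5 with no filter. Without the pair of DN male 12 weeks replicate 1 they were 15 and 7 with the block and 10 and 2 with replicate number as a term. The age counts of 0 became 1 with the list, 4 with replicate number, 1 by DESeq2 and 16 with no filter in control, and 2 with replicate number and 9 with no filter in DN. The 51 calls between barcode lists became 78 with no filter. The share of all pairs called is not given here for the barcode list, replicate number and no-filter settings, or for libraries left out in turn. With no filter more genes were tested. Nothing about the members is therefore read from these counts. The cause of these shifts was not tested. Leaving out each library in turn gave 0 to 2 calls at 6 weeks, with 2 without DN male 12 weeks replicate 2, and 0 to 4 at 12 weeks, with 0 without control female 12 weeks replicate 2, control male 12 weeks replicate 2 or DN male 12 weeks replicate 1. It gave 0 to 3 calls for age in control, 0 to 0 for age in DN and for the difference, and 32 to 55 for the lists. In podocyte-like cells no edgeR fit was made where leaving out a library left under 3 in a group of the comparison, and values without DN male 12 weeks replicate 1 are means of 2 DN libraries. The median share of cells with a UMI over members and classes was 3.99% thinned and 21.0% unthinned. Other scalings, sums of at least 30 cells and keeping doublets left these counts within 1.5 times. Depth limits what can be read from members with few UMIs, such as Atf3.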
